A study of Mus musculus with 16 samples.

Results

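The enzymes that make, cleave and use glycine and serine and pass on one-carbon units were followed in mouse kidney after ureteral obstruction, with and without IL-33. They are the 10 genes GLDC, AMT, GCSH, SHMT1, SHMT2, PHGDH, PSAT1, PSPH, GATM and MTHFD2, of 18132 genes in the deposited table, which spells mouse symbols in capitals. The other 9 symbols were taken for the function of the enzyme. GLDC was chosen on its measured values, because it fell more after obstruction in kidneys without IL-33, so its values are given as a description with no test.

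Unilateral ureteral obstruction (UUO) blocks 1 ureter and injures the kidney above it. Kidney RNA was measured on Illumina BeadChips, on which the brightness of the probes of a gene follows the amount of its transcript, with 1 array per kidney. The 4 groups were 2 control kidneys from wildtype (WT) C57/BL6 mice, 2 control kidneys from IL-33-deficient mice, 7 WT kidneys and 5 IL-33-deficient kidneys, the last 2 groups collected 24 h after UUO. The UUO kidneys came from 2 sets of mice. Set 1 held 3 WT kidneys (3818, 3819, 3820) and 2 IL-33-deficient kidneys (3821, 3822), and set 2 held 4 WT kidneys (3892, 3893, 3894, 3895) and 3 IL-33-deficient kidneys (3897, 3898, 3899). The set of the controls (WT 3811 and 3812, IL-33-deficient 3813 and 3814) is not stated, and the labels do not say whether they had a sham operation. The IL-33-deficient mice had been backcrossed to C57BL/6J BomTac. Mice were 8 weeks old where the methods give no other age, and the labels give neither age nor sex.

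Glycine is broken down in mitochondria by the glycine cleavage system, whose P protein (GLDC) removes the carboxyl group, whose H protein (GCSH) carries the intermediate on a lipoyl arm and whose T protein (AMT) hands a one-carbon unit to folate. Serine is made from the glycolytic intermediate 3-phosphoglycerate by PHGDH, PSAT1 and PSPH in turn, and serine hydroxymethyltransferases in the cytosol (SHMT1) and in mitochondria (SHMT2) interconvert serine and glycine. MTHFD2 oxidises the folate-bound unit in mitochondria, and GATM joins glycine to the guanidino group of arginine in the first step of creatine synthesis. The kidney, chiefly its proximal tubule, is a known site of glycine cleavage, of serine release into blood and of GATM activity.

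After UUO the members moved in both directions. In WT kidneys PSAT1 and MTHFD2 rose and SHMT2 and GATM fell, and in IL-33-deficient kidneys the same 4 genes moved in those directions and PHGDH rose as well. The rises of PSAT1 and MTHFD2 lay between 1.91-fold and 2.38-fold. Between the genotypes no tested member differed beyond the threshold, while GLDC, chosen for such a difference, was lower in every IL-33-deficient UUO kidney than in any WT UUO kidney.

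The promoters of 6 members are shown: PSAT1, PHGDH and MTHFD2, called higher after UUO in at least 1 genotype, SHMT2 and GATM, called lower in both, and GLDC. They were taken from RefSeq on GRCm38.p6, run 5′ to 3′ on the strand of the gene, here the minus strand for all 6, and reach from 250 bases before the start of the transcript to 50 bases after it. The start used for MTHFD2 is that of its transcript in the RefSeq table and lies inside the annotated gene. Capitals mark the CCAAT box, read as CCAAT or as ATTGG on the opposite strand. The coordinates are chr19:15925010-15925309 for PSAT1, chr3:98339920-98340219 for PHGDH, chr6:83317555-83317854 for MTHFD2, chr19:30175392-30175691 for GLDC, chr10:127522395-127522694 for SHMT2 and chr2:122611228-122611527 for GATM.
PSAT1: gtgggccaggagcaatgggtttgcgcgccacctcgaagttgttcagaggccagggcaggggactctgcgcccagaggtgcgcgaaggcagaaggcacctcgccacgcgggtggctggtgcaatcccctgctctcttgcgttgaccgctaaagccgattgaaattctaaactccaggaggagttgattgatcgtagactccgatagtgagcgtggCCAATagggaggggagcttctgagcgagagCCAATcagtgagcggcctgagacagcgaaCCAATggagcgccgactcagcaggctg
PHGDH: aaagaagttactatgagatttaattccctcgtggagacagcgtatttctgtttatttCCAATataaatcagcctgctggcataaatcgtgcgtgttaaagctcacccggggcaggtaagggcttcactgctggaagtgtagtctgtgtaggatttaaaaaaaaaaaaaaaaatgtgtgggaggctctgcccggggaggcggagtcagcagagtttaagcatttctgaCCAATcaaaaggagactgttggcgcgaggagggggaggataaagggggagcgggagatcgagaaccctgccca
MTHFD2: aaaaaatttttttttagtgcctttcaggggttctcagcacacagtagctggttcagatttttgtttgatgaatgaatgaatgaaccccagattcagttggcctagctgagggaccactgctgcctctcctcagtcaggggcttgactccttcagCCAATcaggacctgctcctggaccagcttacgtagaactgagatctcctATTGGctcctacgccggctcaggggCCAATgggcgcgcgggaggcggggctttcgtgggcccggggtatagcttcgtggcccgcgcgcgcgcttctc
GLDC: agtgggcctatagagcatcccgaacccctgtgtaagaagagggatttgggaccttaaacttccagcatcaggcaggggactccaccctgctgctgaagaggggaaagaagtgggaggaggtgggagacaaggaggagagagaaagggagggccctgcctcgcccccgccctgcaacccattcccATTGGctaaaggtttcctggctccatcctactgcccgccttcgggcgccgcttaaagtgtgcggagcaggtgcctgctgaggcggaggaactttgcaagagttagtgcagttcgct
SHMT2: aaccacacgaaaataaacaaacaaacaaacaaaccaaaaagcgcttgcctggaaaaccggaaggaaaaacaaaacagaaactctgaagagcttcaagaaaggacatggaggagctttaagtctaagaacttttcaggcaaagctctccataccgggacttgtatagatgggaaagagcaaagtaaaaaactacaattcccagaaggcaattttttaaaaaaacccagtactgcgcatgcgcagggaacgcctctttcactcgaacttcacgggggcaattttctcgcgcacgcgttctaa
GATM: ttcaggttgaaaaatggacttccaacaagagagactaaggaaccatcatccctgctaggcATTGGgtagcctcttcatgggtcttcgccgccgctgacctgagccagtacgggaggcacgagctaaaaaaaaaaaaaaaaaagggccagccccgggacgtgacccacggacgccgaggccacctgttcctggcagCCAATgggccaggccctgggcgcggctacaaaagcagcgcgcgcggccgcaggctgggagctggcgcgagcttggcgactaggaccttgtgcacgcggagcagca

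These windows held 3 copies of CCAAT for PSAT1, 3 for MTHFD2, 2 for PHGDH, 2 for GATM, 1 for GLDC and 0 for SHMT2. The other RefSeq window of PSAT1, chr19:15924573-15924872, held 0. Among the members not called after UUO, GCSH and PSPH held 2 each and AMT and SHMT1 held 1 each. Of 32851 mouse promoter windows of the same length, 37.4% held at least 1, 11.7% at least 2 and 3.37% at least 3. CCAAT was searched after the sequences had been read, and a match is only a description of the letters. The response element of ATF4, a factor that drives serine synthesis genes under amino acid shortage, was searched on both strands as TGATGNAA, where N is any base. It was present in 3.97% of all windows and in none of the 11 windows of the 10 members, of which PSAT1 has 2. Elements outside these windows, such as introns, were not searched.

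The genotype label was checked on IL33 itself, given as log2 intensity throughout. It read 7.62 and 8.02 in the WT controls, 8.39 to 9.57 with a median of 9.44 in the 7 WT UUO kidneys, 6.85 and 6.88 in the IL-33-deficient controls, and 6.80, 6.88, 6.88, 6.88 and 7.02 in the IL-33-deficient UUO kidneys. No IL-33-deficient kidney reached the level of a WT kidney. The labelled tissue was checked on markers of the proximal tubule, of which 8 of 10 were on the table. Their summed intensity was 49331 to 53416 in the 4 controls, 24516 to 53138 in WT UUO kidneys and 19244 to 29709 in IL-33-deficient UUO kidneys.

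WT UUO kidney 3820 stood apart from the other UUO kidneys in these marker genes. Its proximal tubule sum of 53138 lay within the control range. Its summed intensity of 3 markers of injured tubule was 5249, against 15201 to 29522 in the other WT UUO kidneys, 22080 to 29241 in IL-33-deficient UUO kidneys and 432 to 478 in controls. WT UUO kidney 3818 had the next lowest injured tubule sum, 15201. Summed over their markers, leukocyte signal (6 of 8 genes on the table) ran from 1221 to 1268 in controls, 1294 to 2023 in WT UUO and 1447 to 2083 in IL-33-deficient UUO kidneys, and fibroblast signal (4 genes) from 1565 to 1875, 1516 to 2470 and 2155 to 3144. DCN made up most of the fibroblast sum in controls, at 1070 to 1253, and limma called it in neither response to UUO. PDGFRB, COL1A1 and COL3A1 were called higher in both genotypes. The leukocyte markers did not move together. After UUO limma called CD68 higher in both genotypes, CD52 higher in IL-33-deficient kidneys alone, and PTPRC, ITGAM and CD3E in neither. CSF1R was called lower in both, by a log2 of −0.41 in WT and −0.36 in IL-33-deficient kidneys. PTPRC (109 to 121), ITGAM (108 to 122) and CD3E (116 to 142) had intensities near the lowest of the table, 95.5. At such intensities the arrays may not show a change of these 3 genes. Values that leaving out 3820 moved most are given with and without it. The kidneys were measured whole, so fewer cells of a type and less RNA per cell cannot be told apart.

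**Figure D1:**
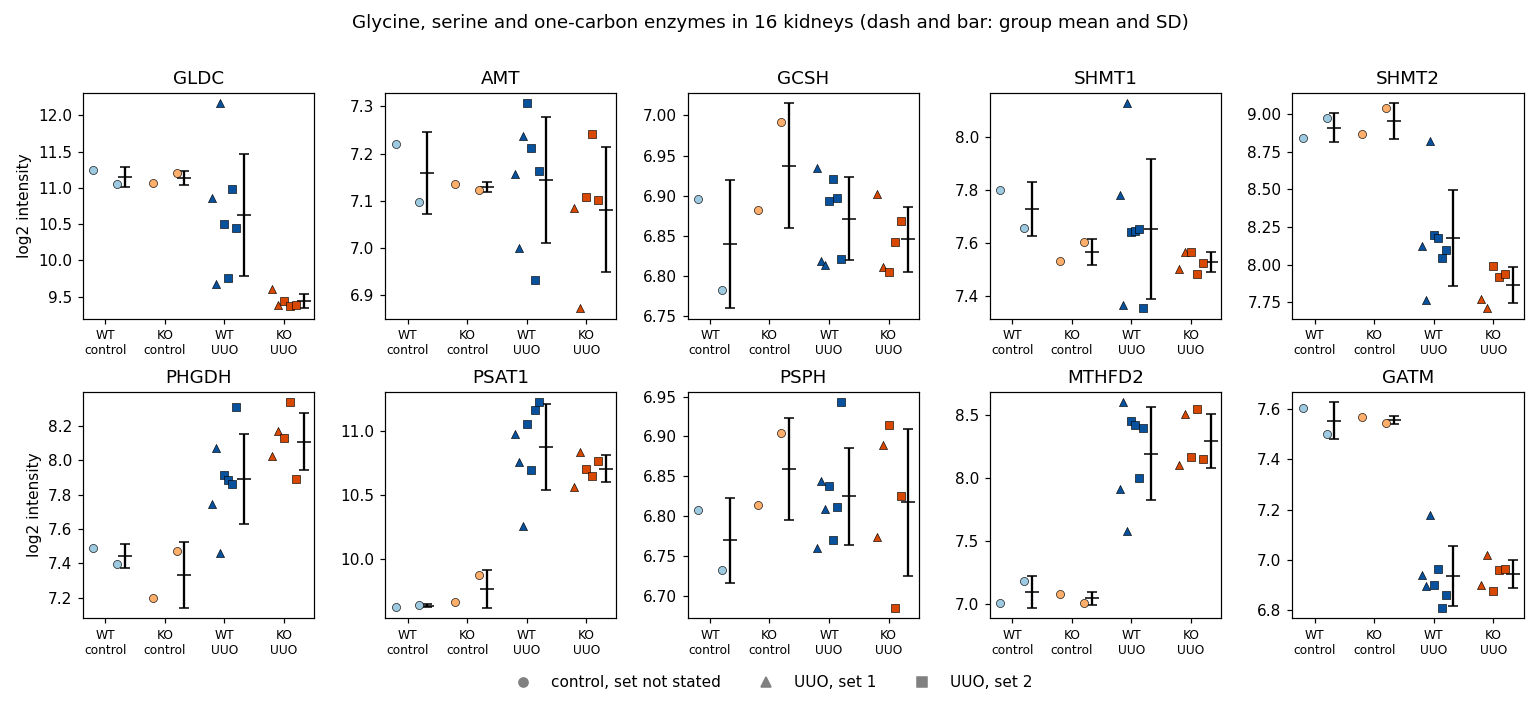
Log2 intensity (vertical axes, scaled separately for each gene) of the 10 members in 16 kidneys, 1 point per kidney, with the group mean and SD as a dash and bar. Circles are controls, triangles UUO kidneys of set 1 and squares UUO kidneys of set 2; PSAT1 and MTHFD2 lie above their controls in all 12 UUO kidneys, SHMT2 and GATM below, and 1 WT UUO kidney stands above the controls for GLDC.

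GLDC, the decarboxylating subunit of glycine cleavage, is encoded at chr19:30098441-30175441. It read 11.24 and 11.05 in the WT controls and 11.07 and 11.20 in the IL-33-deficient controls. In the 7 WT UUO kidneys it ran from 9.68 (3819) to 12.16 (3820) with a median of 10.51, and in the IL-33-deficient UUO kidneys it read 9.61 (3821), 9.39 (3822), 9.44 (3897), 9.37 (3898) and 9.38 (3899). All 5 IL-33-deficient UUO kidneys lay below every WT UUO kidney and every control, and 6 of 7 WT UUO kidneys lay below every control, while 3820 lay above them. The narrowest gap between the genotypes after UUO was from 9.61 in 3821 to 9.68 in 3819.

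The spread of GLDC was wide in WT UUO kidneys and narrow in IL-33-deficient UUO kidneys. The SD was 0.84 in the 7 WT UUO kidneys, 0.55 in the 6 without 3820, and 0.10 in the 5 IL-33-deficient UUO kidneys. The GLDC differences below are those the gene was chosen for and carry no test. UUO kidneys differed from controls by a log2 of −0.52 (SE 0.44) in WT and −1.70 (SE 0.45) in IL-33-deficient mice. After UUO the IL-33-deficient kidneys differed from WT by a log2 of −1.19 (SE 0.34), a 2.28-fold lower intensity. The control kidneys of the genotypes differed by a log2 of −0.01 (SE 0.54). Each of these SEs pools the spread of all groups in its fit, the wide WT UUO group included.

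The size of the GLDC difference rested in part on kidney 3820. Without it the WT response was −0.78 and the difference after UUO −0.93 on the log2 scale, and without both 3820 and 3818 the difference after UUO was −0.83. Within set 1 the difference after UUO was −1.40 (SE 0.72), within set 2 it was −1.02 (SE 0.22), and with the set as a block it was −1.18 (SE 0.34).

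GLDC is set here beside the proximal tubule sum of the UUO kidneys. The kidney with the highest GLDC, 3820, also had the highest sum among UUO kidneys, and the lowest WT kidney for GLDC, 3819, had the lowest WT sum, 24516, within the range of the IL-33-deficient UUO kidneys. Other kidneys did not keep that order. WT kidney 3893 had GLDC at 9.76 beside a sum of 39575, and WT kidney 3894 had 10.98 beside 36577, above 3818 with 10.86 beside 41410. Within the IL-33-deficient UUO kidneys, 3899 had the highest sum, 29709, with GLDC at 9.38, and 3821 had the highest GLDC, 9.61, with a sum of 19627. The sum of 3899 was also above that of WT kidney 3819, whose GLDC was 9.68. Of the 8 markers, limma called 6 lower after UUO in IL-33-deficient kidneys, where 11.2% of all genes were called lower. In WT it called 0, beside 8.22% of all genes, and 3 lower without 3820. At an unadjusted p under 0.05 there were 4 in WT, beside 4716 of 18132 genes. In the difference of the responses limma called 0 of the 8, beside 0% of all genes. Between the genotypes after UUO it called 0, beside 0.00552% of all genes in each direction. At an unadjusted p under 0.05 there were 4 in that comparison, beside 1874 of 18132 genes. Without 3820 limma called 2 lower between the genotypes. The shares of all genes in the fits without 3820 are not given here. The part of tubule RNA in the values of GLDC was not tested.

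**Figure D2:**
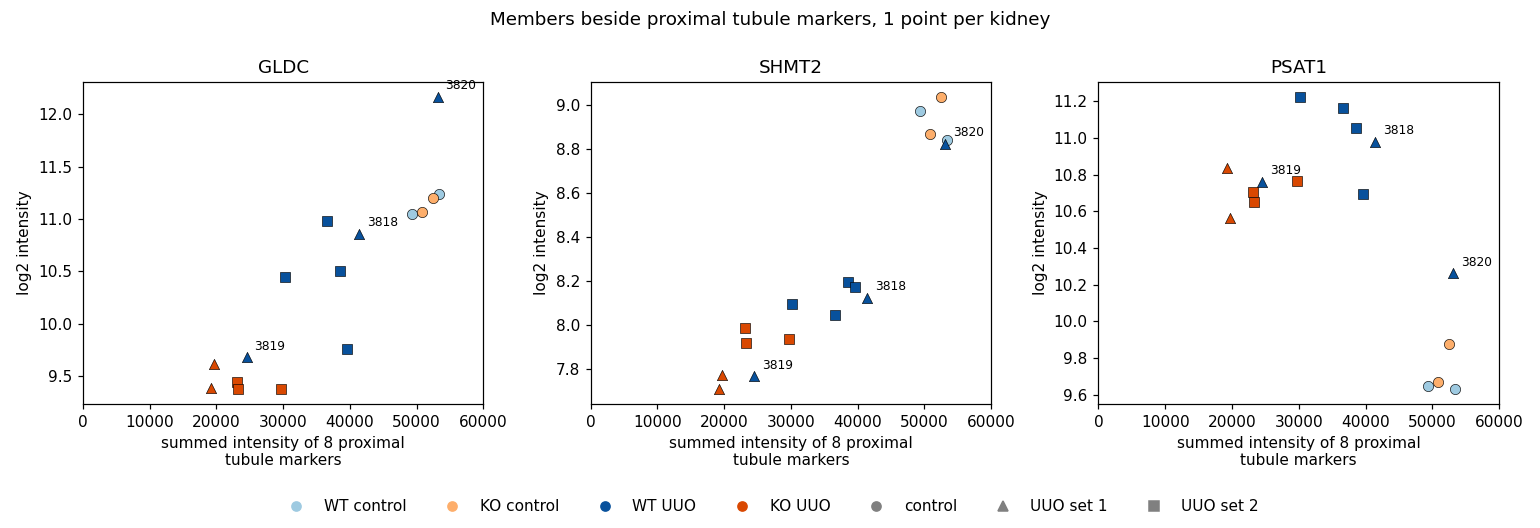
Log2 intensity of GLDC, SHMT2 and PSAT1 (vertical axes) against the summed intensity of 8 proximal tubule markers (horizontal axis), 1 point per kidney, coloured by group and shaped by set of mice. The 5 IL-33-deficient UUO kidneys lie at the left, from 19244 to 29709, and WT UUO kidney 3820 lies among the controls on the horizontal axis.

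The 5 genes whose values over the 16 kidneys were nearest to those of GLDC were found by the root mean square of the log2 differences, each gene taken relative to its mean over the 4 controls. They were CYP2D9, a cytochrome P450, at 0.34, GSTZ1, an enzyme of tyrosine breakdown, at 0.39, PXMP2, a peroxisomal membrane protein, at 0.40, ENPP2, the enzyme autotaxin, at 0.40 and SLC13A2, a carrier of citrate and other dicarboxylates, at 0.43. The median over all genes was 1.14. All 5 lay above their control mean in WT UUO kidney 3820, as GLDC did, and below it in all 5 IL-33-deficient UUO kidneys. They were picked for nearness over these same kidneys, so that likeness follows from the choice and is no test. Among the other members SHMT2 came nearest to GLDC, at 0.55 and rank 101, followed by GATM at 0.78 and rank 694. PHGDH, PSAT1 and MTHFD2 lay far down the order, at ranks 17550, 17909 and 17964 of the 18132 genes.

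**Figure D3:**
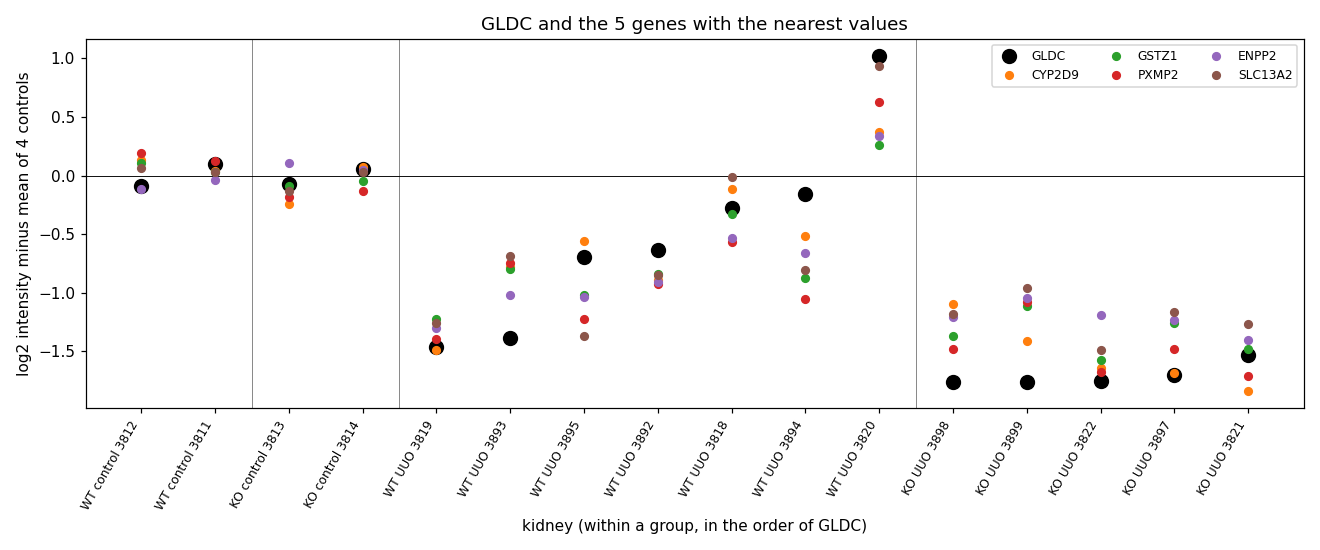
Log2 intensity minus the mean of the 4 controls (vertical axis) of GLDC and of the 5 genes nearest to it, for each of 16 kidneys (horizontal axis, ordered within a group by GLDC). Black points are GLDC and coloured points the other genes. All 6 are above 0 in WT UUO kidney 3820 and below 0 in the 5 IL-33-deficient UUO kidneys, as follows from the choice of the genes.

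GLDC lies on the same chromosome as IL33, and the lowest positions of the genes are 0.173 Mb apart on GRCm38.p6. The other 18 protein-coding genes that start within 1 Mb of GLDC were all on the table. Their log2 differences between IL-33-deficient and WT kidneys after UUO ran from −0.18 (INSL6) to 0.23 (ERMP1, adjusted p = 0.336, limma). None of the 18 was called by limma in that comparison, against 0.00552% of all genes called in each direction. At an unadjusted p under 0.05 there were 3, beside 1874 of 18132 genes. After UUO against control, RCL1, an RNA cyclase-like protein, rose by a log2 of 0.32 in WT and 0.36 in IL-33-deficient kidneys, and CD274, which encodes PD-L1, fell by 0.20 in IL-33-deficient kidneys. The remaining 16, JAK2, INSL6, RLN1, 5033414D02RIK, PDCD1LG2, C030046E11RIK, ERMP1, MLANA, 9930021J03RIK, RANBP6, TRPD52L3, UHRF2, MBL2, DKK1, PRKG1 and CSTF2T, were called in neither response.

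The partners of GLDC in glycine cleavage gave no called difference. AMT, the T protein, read 7.22 and 7.10 in the WT controls, 7.14 and 7.12 in the IL-33-deficient controls, 6.93 to 7.31 (median 7.16) in WT UUO kidneys and 7.08, 6.87, 7.11, 7.24 and 7.10 in IL-33-deficient UUO kidneys. GCSH, the H protein, read 6.90 and 6.78, 6.88 and 6.99, 6.81 to 6.93 (median 6.89), and 6.90, 6.81, 6.80, 6.84 and 6.87 in the same order. Both genes overlapped between all groups. Their deposited intensities were 117 to 158 for AMT and 110 to 127 for GCSH, near the lowest of the table, 95.5, and beside 102 to 151 for 6 genes of tissues outside the kidney (ALB, CYP11B1, CYP11A1, ADIPOQ, PLIN and PNLIP). At such intensities the arrays may not show a change of either gene.

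SHMT2, the mitochondrial serine hydroxymethyltransferase (chr10:127517123-127522444), fell in both genotypes. It read 8.84 and 8.98 in the WT controls and 8.87 and 9.04 in the IL-33-deficient controls. It ran from 7.77 to 8.83 with a median of 8.12 in WT UUO kidneys and read 7.77, 7.71, 7.99, 7.92 and 7.94 in IL-33-deficient UUO kidneys. All 12 UUO kidneys were below all 4 controls, with 3820 just under the lowest control. The fall was a log2 of −0.73 (SE 0.18, adjusted p = 0.0111, limma) in WT, a 1.66-fold difference, and −1.09 (SE 0.18, adjusted p = 0.000593, limma) in IL-33-deficient kidneys, a 2.13-fold difference.

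The call for SHMT2 in WT depended on which kidneys and groups were fitted. It was lost without control 3811 (adjusted p = 0.0704, limma), without control 3812 (adjusted p = 0.142, limma), with the WT groups fitted alone (adjusted p = 0.0578, limma) and with the UUO kidneys of set 1 and all controls (adjusted p = 0.266, limma). Kidney 3820 was highest among UUO kidneys in SHMT2 and in the proximal tubule sum, and the part of tubule RNA was not tested.

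SHMT1, the cytosolic form, showed no such fall. It read 7.80 and 7.66 in the WT controls, 7.53 and 7.60 in the IL-33-deficient controls, 7.35 to 8.13 (median 7.64) in WT UUO kidneys and 7.50, 7.57, 7.57, 7.48 and 7.53 in IL-33-deficient UUO kidneys. The WT UUO kidneys lay on both sides of the controls, with 3820 highest. Its log2 difference was −0.07 (95% interval −0.37 to 0.22) in WT and −0.04 (95% interval −0.35 to 0.27) in IL-33-deficient kidneys.

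Of serine synthesis, PSAT1 rose in both genotypes. This aminotransferase, encoded at chr19:15905123-15925059, read 9.63 and 9.65 in the WT controls and 9.67 and 9.88 in the IL-33-deficient controls. It ran from 10.26 (3820) to 11.22 with a median of 10.98 in WT UUO kidneys and read 10.56, 10.84, 10.71, 10.65 and 10.77 in IL-33-deficient UUO kidneys. Every UUO kidney was above every control. The rise was a log2 of 1.24 (SE 0.18, adjusted p = 0.000575, limma) in WT, 2.36-fold, and 0.93 (SE 0.19, adjusted p = 0.00216, limma) in IL-33-deficient kidneys, 1.91-fold. With the UUO kidneys of set 1 and all controls the WT call was lost (1.03, adjusted p = 0.0632, limma).

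PHGDH, the dehydrogenase that opens the pathway (chr3:98313171-98339969), rose in the IL-33-deficient kidneys. It read 7.49 and 7.39 in the WT controls and 7.20 and 7.47 in the IL-33-deficient controls, 7.46 (3820) to 8.31 with a median of 7.88 in WT UUO kidneys, and 8.02, 8.17, 8.13, 8.34 and 7.89 in IL-33-deficient UUO kidneys. All 5 IL-33-deficient UUO kidneys were above every control, and 6 of 7 WT UUO kidneys were above both WT controls. The difference was a log2 of 0.77 (SE 0.17, adjusted p = 0.00334, limma) in IL-33-deficient kidneys and 0.45 (SE 0.16, adjusted p = 0.0757, limma) in WT. The WT value passed the threshold without kidney 3820 (0.52, adjusted p = 0.0112, limma), and the IL-33-deficient value did not without control 3813 (0.64, adjusted p = 0.0766, limma).

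PSPH, the phosphatase that completes serine synthesis, read 6.81 and 6.73 in the WT controls, 6.81 and 6.90 in the IL-33-deficient controls, 6.76 to 6.94 (median 6.81) in WT UUO kidneys and 6.77, 6.89, 6.91, 6.69 and 6.82 in IL-33-deficient UUO kidneys. The UUO kidneys overlapped the controls of their genotype, and the deposited intensities of 103 to 123 were as near to the lowest of the table as those of GCSH.

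MTHFD2, which oxidises the one-carbon unit of mitochondrial folate (chr6:83305704-83326011), rose in both genotypes. It read 7.01 and 7.18 in the WT controls and 7.08 and 7.01 in the IL-33-deficient controls. It ran from 7.58 (3820) to 8.60 with a median of 8.39 in WT UUO kidneys and read 8.10, 8.51, 8.16, 8.55 and 8.15 in IL-33-deficient UUO kidneys. No UUO kidney overlapped a control. The rise was a log2 of 1.10 (SE 0.21, adjusted p = 0.00302, limma) in WT and 1.25 (SE 0.22, adjusted p = 0.000844, limma) in IL-33-deficient kidneys. The WT call was lost without control 3811 (1.01, adjusted p = 0.0607, limma) and with the UUO kidneys of set 1 and all controls (0.93, adjusted p = 0.148, limma). Its control intensities of 129 to 146 were close to those of the genes from outside the kidney, and after subtraction of the lowest intensity and an offset of 16 the rises became 1.88 and 2.15.

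GATM, the amidinotransferase that uses glycine for creatine (chr2:122594473-122611277), fell in both genotypes. It read 7.61 and 7.50 in the WT controls, 7.57 and 7.54 in the IL-33-deficient controls, 6.81 to 7.18 (median 6.90) in WT UUO kidneys, with 3820 highest, and 6.90, 7.02, 6.88, 6.96 and 6.96 in IL-33-deficient UUO kidneys. All UUO kidneys were below all controls. The fall was −0.62 (SE 0.07, adjusted p = 0.000103, limma) in WT and −0.61 (SE 0.07, adjusted p = 6.2e-05, limma) in IL-33-deficient kidneys on the log2 scale. Its UUO intensities of 112 to 144 reached the level of the genes from outside the kidney, and after subtraction of the lowest intensity the falls became −1.36 and −1.33.

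Of the 9 members other than GLDC, 2 were called higher and 2 lower after UUO in WT at an adjusted p of 0.05 over all genes, where 6.97% of all genes were called higher and 8.22% lower. In IL-33-deficient kidneys 3 were called higher and 2 lower, where 10.6% of all genes were called higher and 11.2% lower. With the UUO kidneys of set 1 and all controls, 1 member, GATM, was called in WT, and without WT control 3811 the count was 2. Without kidney 3820 the WT count was 5, the same 5 genes in the same directions as in IL-33-deficient kidneys. The shares of all genes in these smaller fits are not given here. The median log2 difference over the 9 was 0.03 in WT and −0.04 in IL-33-deficient kidneys, and over all genes it was 0.00 in both.

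**Figure D4:**
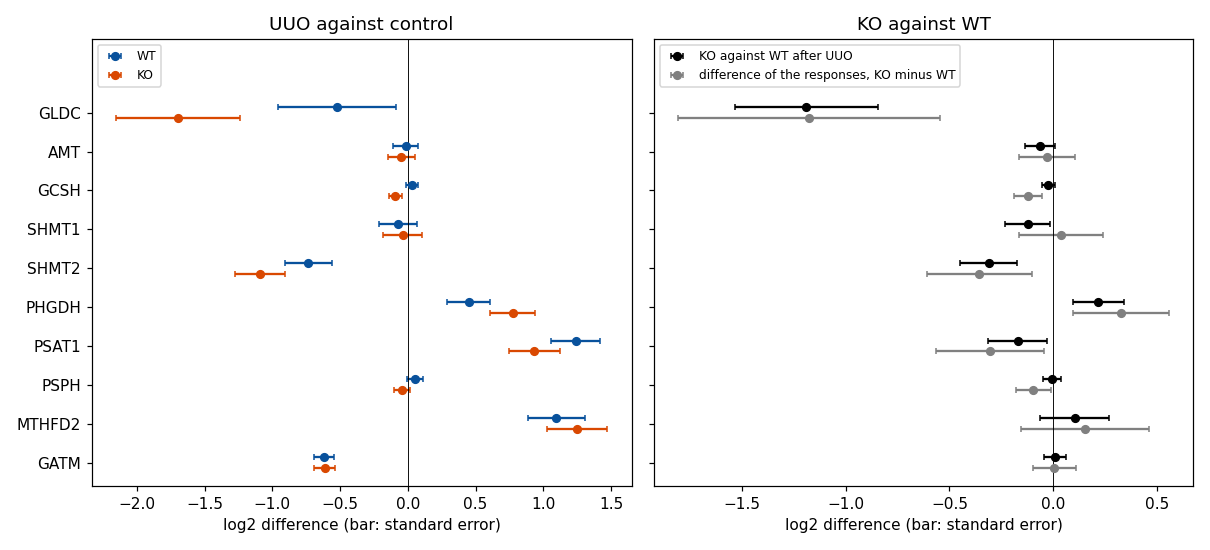
Log2 differences of the 10 members (rows) with standard errors as bars. The left panel gives UUO against control in WT (blue) and IL-33-deficient (orange) kidneys, where PSAT1 and MTHFD2 lie above 0 and SHMT2 and GATM below; the right panel gives IL-33-deficient against WT after UUO (black) and the difference of the responses (grey), where GLDC, the gene chosen for it, lies lowest.

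The direct question of the design, whether kidneys without IL-33 differ from WT 24 h after UUO, gave no called member, and GLDC was not tested. By limma, at an adjusted p under 0.25 with a raw p under 0.05 and more than a 1.3-fold difference, 0 of 9 were called, where 0.00552% of all genes were called in each direction. At an unadjusted p under 0.05 alone there was 1 of 9, SHMT2, beside 1874 of 18132 genes. SHMT2 differed by a log2 of −0.31 (SE 0.14, IL-33-deficient minus WT, 95% interval −0.61 to −0.01, adjusted p = 0.467, limma), and the groups overlapped. Without 3820 this difference was −0.20, within set 1 −0.50 and within set 2 −0.18.

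The other differences after UUO had intervals on both sides of 0. PHGDH was 0.22 (95% interval −0.05 to 0.48), PSAT1 −0.17 (−0.48 to 0.13), MTHFD2 0.10 (−0.26 to 0.46), SHMT1 −0.12 (−0.36 to 0.11) and GATM 0.01 (−0.11 to 0.13) on the log2 scale. AMT, GCSH and PSPH lay between −0.06 and −0.01. Without kidney 3820 these differences were 0.15 for PHGDH, −0.27 for PSAT1, 0.00 for MTHFD2, −0.05 for SHMT1 and 0.05 for GATM.

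The difference between the genotypes in their response to UUO was fitted over all 16 kidneys. It was called for 0 of 9 members by limma at an adjusted p of 0.05, with 0 of 9 at an unadjusted p under 0.05, beside 860 of all genes unadjusted and 0% called in each direction. The values were −0.36 (SE 0.25) for SHMT2, 0.33 (SE 0.23) for PHGDH, −0.31 (SE 0.26) for PSAT1, 0.15 (SE 0.31) for MTHFD2 and 0.00 (SE 0.10) for GATM. PHGDH, which passed the threshold in IL-33-deficient and not in WT kidneys, was thus not shown to respond differently. Without kidney 3820 they were −0.25 for SHMT2, −0.41 for PSAT1 and 0.05 for MTHFD2, without control 3813 PHGDH was 0.19, and without control 3814 PSAT1 was −0.20. For GLDC, described only, the difference was −1.18 (SE 0.63), and −0.92 without 3820.

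In control kidneys the genotypes differed by −0.16 (SHMT1) to 0.13 (PSAT1) over the 9 members. By limma 0 were called at an adjusted p of 0.05 and 0 at an unadjusted p under 0.05, beside 0% of all genes called in each direction and 664 unadjusted. With 2 kidneys a group and the spread pooled over all 4 groups, UUO kidneys included, the interval for PSAT1 ran from −0.35 to 0.62.

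The pathways around the members were described from 5 lists of 54 measured genes. In WT 3 were called higher and 20 lower after UUO, 5.56% and 37%, and in IL-33-deficient kidneys 4 higher and 22 lower, 7.41% and 40.7%. Of all genes 6.97% were called higher and 8.22% lower in WT, and 10.6% higher and 11.2% lower in IL-33-deficient kidneys. These shares also stand beside the counts of each single list below. Without kidney 3820 the WT counts were 5 higher and 24 lower, and the shares of all genes in that fit are not given here. Between the genotypes after UUO, in the difference of their responses and in controls, limma called 0 of the 54. At an unadjusted p under 0.05 there were 12, 2 and 0, beside 1874, 860 and 664 of 18132 genes. The proximal tubule sum was lower in most UUO kidneys, and its part in these counts was not tested.

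Among 15 folate carriers and enzymes, 2 were called higher and 5 lower in each genotype. The trifunctional cytosolic enzyme MTHFD1 fell by 0.79 in WT and by 0.89 in IL-33-deficient kidneys. The folate receptor FOLR1 fell by 0.78 and by 1.02, and the folate carrier SLC46A1 by 0.75 and by 1.02, in the same order. Thymidylate synthase (TYMS) rose by 0.37 in WT and by 0.24 in IL-33-deficient kidneys, and mitochondrial ALDH1L2, which releases carbon dioxide from formyl folate, rose by 0.22 and by 0.31. Over 7 markers of cycling cells, the summed intensity was 911 to 958 in controls, 961 to 1596 in WT UUO kidneys and 1397 to 1669 in IL-33-deficient UUO kidneys, and its part in TYMS was not tested. MCM5 alone ran from 188 to 228 in controls, 226 to 719 in WT UUO and 548 to 737 in IL-33-deficient UUO kidneys. Of the 7, limma called 1 higher in WT, beside 6.97% of all genes, and 3 in IL-33-deficient kidneys, beside 10.6%.

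The 4 creatine genes moved beside GATM. GAMT, which methylates its product to creatine, fell by 1.43 in WT and by 1.39 in IL-33-deficient kidneys. Mitochondrial creatine kinase (CKMT1) fell by 0.83 and by 0.94 in the same order. Brain-type creatine kinase (CKB) fell by 0.88 in WT and differed by −0.40 (adjusted p = 0.258, limma) in IL-33-deficient kidneys. The creatine carrier SLC6A8 rose by 0.29 and by 0.40. In all, 1 was called higher and 3 lower in WT, and 1 higher and 2 lower in IL-33-deficient kidneys.

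Of 15 genes of choline, betaine and methionine, 6 were called lower in WT and 7 in IL-33-deficient kidneys, with 0 higher. CBS, which joins serine to homocysteine, fell by 1.46 in WT and by 1.83 in IL-33-deficient kidneys, and the methyltransferase BHMT2 fell by 0.87 and by 1.29. Of 16 genes of glycine and serine use, 6 fell in WT, while in IL-33-deficient kidneys 7 fell and 1 rose. PRODH2, of hydroxyproline breakdown, fell by 1.20 in WT and by 1.38 in IL-33-deficient kidneys. The aminotransferase AGXT2 fell by 0.87 and by 1.03, and the glyoxylate reductase GRHPR by 0.77 and by 1.18, in the same order. ALAS1, which uses glycine for heme, rose by 0.58 in IL-33-deficient kidneys and differed by 0.46 (adjusted p = 0.0664, limma) in WT. Of the 4 listed genes of lipoate handling and of the L protein of glycine cleavage, lipoate synthase (LIAS) alone was called, and fell by 0.27 in IL-33-deficient kidneys.

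ATF4 and 9 of its known targets outside the members were listed because ATF4 is known to drive serine synthesis and mitochondrial one-carbon genes. Of the members of these kinds, PHGDH, PSAT1 and MTHFD2 were called higher after UUO in at least 1 genotype. SHMT2 was called lower in both, and PSPH, near the background, in neither. In WT 5 of the 10 listed genes were called higher and 1 lower, beside 6.97% and 8.22% of all genes. In IL-33-deficient kidneys 6 were higher and 0 lower, beside 10.6% and 11.2% of all genes. Like the other lists, this one was chosen with earlier results of these data known. The glutathione-degrading enzyme CHAC1 rose by 2.11 in WT and by 2.60 in IL-33-deficient kidneys, and asparagine synthetase (ASNS) by 1.78 and by 2.15. SESN2, a stress-induced inhibitor of mTORC1, fell by 0.30 in WT. ATF4 itself differed by 0.86 (adjusted p = 0.0546, limma) in WT and rose by 1.20 (adjusted p = 0.00783, limma) in IL-33-deficient kidneys. The median of the list was 0.82 in WT and 1.00 in IL-33-deficient kidneys, and that of all genes was 0.00.

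**Figure D5:**
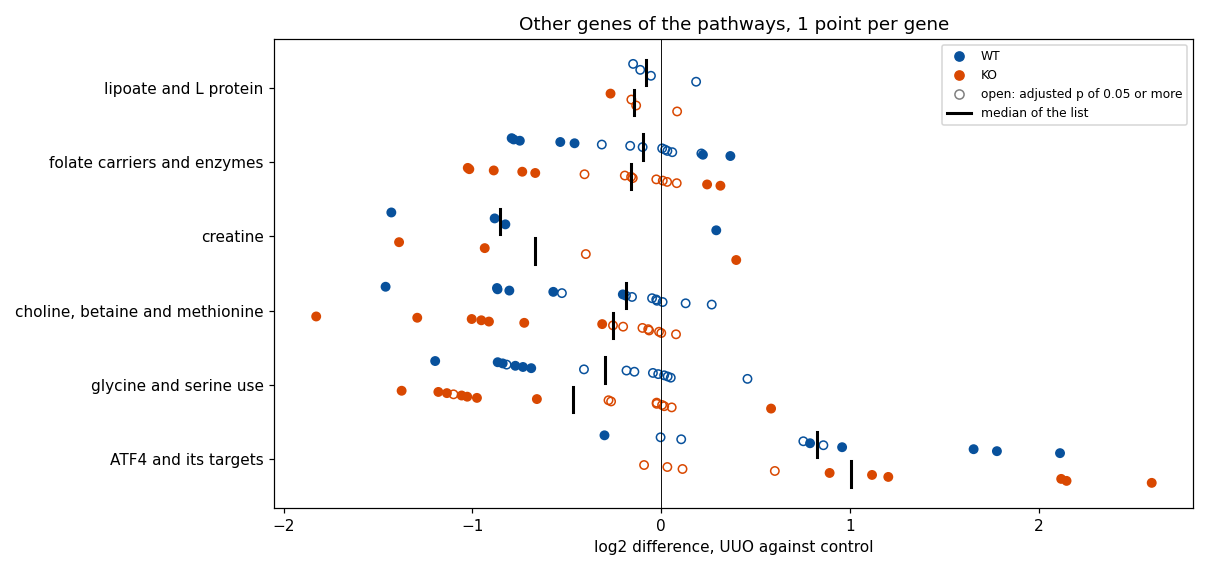
Log2 difference of UUO against control (horizontal axis) for each gene of 5 pathway lists and of ATF4 and its targets (rows), blue for WT and orange for IL-33-deficient kidneys. Filled points passed an adjusted p of 0.05, open points did not, and black bars mark the list medians, which are 0.82 and 1.00 for ATF4 and its targets and below 0 for the other 5 lists.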

How the data were processed

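Labelled kidney RNA from 16 mice was measured on Illumina MouseRef-8 v2 BeadChips and read with BeadStudio 2, per the labels. The values deposited by the authors are linear intensities of 18132 genes, made after import with beadarray. How they were background-corrected and normalized, and how probes were joined into genes, is not given in the sources used here. Array medians lay between 132 and 133. The table has no detection p-values, its lowest intensity is 95.5, and such a floor shrinks the fold changes of dim genes. The precision is limited by the number of arrays. Samples were grouped by genotype and treatment from their titles, 0 columns of values were left unused, and array numbers are those of the titles.

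Quantile normalization was run across all 16 arrays, and values were taken to log2 and fitted in R 4.3.3 with limma 3.58.1 (lmFit, eBayes). One model over 4 groups gave the responses to UUO, their difference and the comparison of controls, called at a Benjamini-Hochberg adjusted p under 0.05 over all genes. The 12 UUO arrays alone gave IL-33-deficient against WT, called at an adjusted p under 0.25 with a raw p under 0.05 and more than a 1.3-fold difference. This is the threshold of the authors, who applied it with fewer WT kidneys than the 7 used here. Each p-value measures the spread between single kidneys, pooled over the groups of its fit. Marker sums and plots were made in Python 3.11.15 with numpy 2.4.6, pandas 2.3.3 and matplotlib 3.10.9. The fits were also run on simulated data with equal spread in all groups, unlike these kidneys. That run checks the code alone. Promoters were taken from RefSeq on GRCm38.p6.

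The members and all lists were chosen with earlier results of these data known. Genes named are the 10 members, IL33, the 2 largest rises and falls called in each list and comparison, the 5 genes nearest to GLDC and the genes within 1 Mb of it. ATF4, single markers of leukocytes, fibroblasts and cycling cells, and the markers of tissue outside the kidney were named beyond that rule, after their values were seen. Of the latter, ELA1 was left out of the background range because it read 1958 to 2688 in controls. Alternatives were other normalizations, background subtraction, brighter genes alone, an intensity trend, array weights, other thresholds, smaller fits, the set of mice and leaving out each array.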

Additional observations from a re-analysis of the deposited data

Results flagged for a closer look

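Over 18 groups of 5 or 7 kidneys, in the 9 members other than GLDC, 2 held a kidney far from the others of its group by the gap test of Dixon, which flags about 1 group in 20 by chance. SHMT2 in WT UUO kidney 3820 read 8.83, above 7.77 to 8.20 in the other 6. GATM in the same kidney read 7.18, above 6.81 to 6.96. In 3820 the injured tubule sum was also the lowest of the UUO kidneys, at 5249, and its part in these values was not tested.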

How the results depend on the processing

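No paired analysis was possible because every array number belongs to 1 kidney and no number is shared between groups. Counts of called members stayed within 1.5 times their value under 125 alternatives and moved under 2. Many of these fits could hardly move a count, so the tally is no measure of firmness. Between the genotypes, in the difference of the responses and in controls, at most 0.00552% of all genes were called in each direction. Leaving out an array of the other genotype kept the means behind a response to UUO. In WT the count of 4 became 2 without WT control 3811 and 1, GATM, with the UUO arrays of set 1, and leaving out each array gave 2 to 5. In IL-33-deficient kidneys the count of 5 became 4 to 5. Counts between the genotypes, in the difference of the responses and in controls were 0 under every alternative run. PHGDH in WT passed the threshold after background subtraction (0.73, adjusted p = 0.0472, limma), among the brighter genes, with array weights, without 3820, without 3818 and 3820, and with set 2 alone (adjusted p = 0.0042 to 0.0472).

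Values near 0 turned their sign, and the cause was not tested. After UUO, IL-33-deficient against WT, set 1 alone gave 0.033 for PSAT1 and −0.046 for GATM, set 2 alone gave −0.027 for MTHFD2, and leaving out both 3818 and 3820 gave −0.077 for MTHFD2. Leaving out each array gave −0.013 to 0.048 for GATM. In the difference of the responses GATM was −0.0037 on the deposited intensities, −0.0021 with median centring and −0.048 to 0.056 when each array was left out, and MTHFD2 was −0.026 without 3818 and 3820. GLDC kept its sign throughout. When each array was left out, it ran from −1.35 to −0.93 after UUO and from −1.34 to −0.92 in the difference of the responses. It was chosen for these differences, so the kept sign is a description and no support for them. The fits without both 3818 and 3820 and those of set 1 or set 2 with all controls were chosen after seeing the data, except set 2 for the difference of the responses, and so was leaving 3820 out of the list counts. AMT, GCSH and PSPH lay near the background of the arrays, which limits what their values can show.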
